A study of Mus musculus with 16 samples.

Results

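The ciliated cell genes were 9 genes chosen by name, Foxj1, Tekt1, Tekt4, Tppp3, Dynlrb2, Rsph1, Ccdc113, Ccdc39 and Dnah5, of 20725 genes named on the arrays. All 9 were measured, with 11 array features in all, and the feature with the highest mean over the 16 libraries stood for each gene. RNA came from cells labelled as alveolar epithelial type II (AT2) cells, the surfactant-making cells of the lung, of mouse pups at postnatal day 3, and was hybridised to single-colour arrays. Hyperoxia pups had been kept in 85% oxygen in a chamber from day 0 to day 3, and the other pups in normoxia. By the titles the groups were 6 wild-type hyperoxia libraries, 2 Fgf10+/- hyperoxia libraries, 4 Fgf10+/- normoxia libraries and 4 wild-type normoxia libraries. Fgf10+/- mice carry a heterozygous mutation of Fgf10, a growth factor of the lung mesenchyme; wild-type pups carry none by their labels. The series text gives 4 samples for each group instead of 6 and 2 in hyperoxia; the titles were followed, and both sources give 8 hyperoxia and 8 normoxia libraries. The labels do not say how the cells were isolated, or whether each library came from 1 pup or from pooled pups, so p-values measure the spread between these libraries.

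Ciliated cells line the conducting airways and beat in waves that move mucus out of the lung. Each carries many motile cilia, built on an axoneme of doublet microtubules to which outer and inner dynein arms, radial spokes and a central pair are attached. Their differentiation runs through Mcidas and its partners, which start the making of many centrioles with the help of Ccno, and through Foxj1 and the RFX factors, which switch on the genes of the axoneme. Ciliated cells do not belong to the alveolus, and type II cells carry no motile cilia.

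RefSeq promoter windows are shown for the members whose window held the core of the X-box, the letters bound by RFX factors. The windows are the 250 bases before the annotated start in GRCm38.p6, and capitals mark GTTGCC, its reverse complement GGCAAC and, in Ccdc113, the forkhead core TGTTTA read as TAAACA. Entries were found for 6 members, with 7 windows in all, since Tekt1 had 2. The X-box core lay in 3 of the 7 windows, against 10.4% of 32851 mouse promoter windows, and the forkhead core in 2 of them, against 12.0% of all windows. The Ccdc113 window lies on the plus strand at chr8:95533850-95534099, the Dynlrb2 window on the plus strand at chr8:116504765-116505014, and the Tekt1 window on the minus strand at chr11:72361883-72362132.
Ccdc113: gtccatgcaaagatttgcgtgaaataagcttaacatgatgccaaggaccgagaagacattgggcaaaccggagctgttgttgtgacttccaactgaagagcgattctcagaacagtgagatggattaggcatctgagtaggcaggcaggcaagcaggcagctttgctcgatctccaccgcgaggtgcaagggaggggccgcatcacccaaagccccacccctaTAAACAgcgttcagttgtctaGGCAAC
Dynlrb2: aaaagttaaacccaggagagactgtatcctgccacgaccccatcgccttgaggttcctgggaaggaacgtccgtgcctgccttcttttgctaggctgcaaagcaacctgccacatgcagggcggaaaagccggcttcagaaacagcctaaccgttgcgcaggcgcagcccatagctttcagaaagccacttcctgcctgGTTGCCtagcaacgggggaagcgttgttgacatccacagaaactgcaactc
Tekt1: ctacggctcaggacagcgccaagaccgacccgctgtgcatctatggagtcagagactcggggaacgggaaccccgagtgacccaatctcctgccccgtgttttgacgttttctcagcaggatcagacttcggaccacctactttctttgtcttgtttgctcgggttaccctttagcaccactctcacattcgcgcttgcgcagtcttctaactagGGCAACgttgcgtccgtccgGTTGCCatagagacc
In Tekt1 the core occurred on either strand, 15 and 35 bases before the start. In Dynlrb2 it lay 51 bases before the start. In Ccdc113 it lay 6 bases before the start, and the forkhead core lay 27 bases before the start. The Dnah5 window, on chromosome 15, held the forkhead core 103 bases before the start and no X-box core. The windows of Tekt4 and Ccdc39 held neither run of letters. Across libraries, r with the mean of the other 8 members was 0.99 for Tekt1, 0.98 for Dynlrb2 and 0.98 for Ccdc113, which had the X-box core. For the members with an entry but no X-box core it was 0.94 (Tekt4), 0.91 (Dnah5) and 0.83 (Ccdc39). A link between the core and these values was not tested. The core also lay in the windows of the regulators Ccno and Mcidas, 219 and 195 bases before the start. A match of letters is a description and shows no binding.

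The labelled cell type was checked first. Sftpc, the surfactant protein C gene, lay between 15.95 and 15.98 on the log2 intensity scale in all 16 libraries, near the top of the scale, and the mean of 12 AT2 cell genes lay between 10.40 and 11.80. The libraries also held signal of airway cells: Scgb1a1, the secretory protein of club cells, lay between 15.13 and 15.98. The Fgf10 feature was dim, between 4.02 and 5.89, with overlapping groups, so it was no check of genotype. Wild-type normoxia library 1 had the highest mean of 11 fibroblast and smooth muscle genes, 10.48, against 7.86 to 9.68 in the other 15 libraries. A list of 10 thymocyte genes averaged 5.54 to 6.43 in 4 normoxia libraries (wild-type library 4 and Fgf10+/- libraries 1, 2 and 4) and 4.01 to 4.75 in the other 12.

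The 9 genes varied together from library to library, also once group means were taken out. Over the 16 libraries, Pearson's r between 2 members was 0.74 to 0.98 over the 36 pairs, with a median of 0.90, and after the group means were taken out it was 0.80 to 0.98, with a median of 0.91. These values describe 16 libraries that share one normalization, and carry no test. Tekt1 followed the mean of the other 8 members most closely, at r = 0.99, and Ccdc39 least, at r = 0.83. The mean of the 9 genes was lowest in wild-type hyperoxia library 1, at 6.99, then in wild-type hyperoxia library 5, at 7.22, and in wild-type normoxia library 1, at 7.51. It was highest in Fgf10+/- normoxia library 3, at 9.62, in wild-type normoxia libraries 3 and 2, at 9.54 and 9.47, and in wild-type hyperoxia library 4, at 9.43. So a hyperoxia library stood among the highest and a normoxia library among the lowest. The spread within groups was wide: the residual SD of the members was 0.71 to 0.99, at the 91.9th to 98.9th percentile of all genes, whose median was 0.43.

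**Figure D1:**
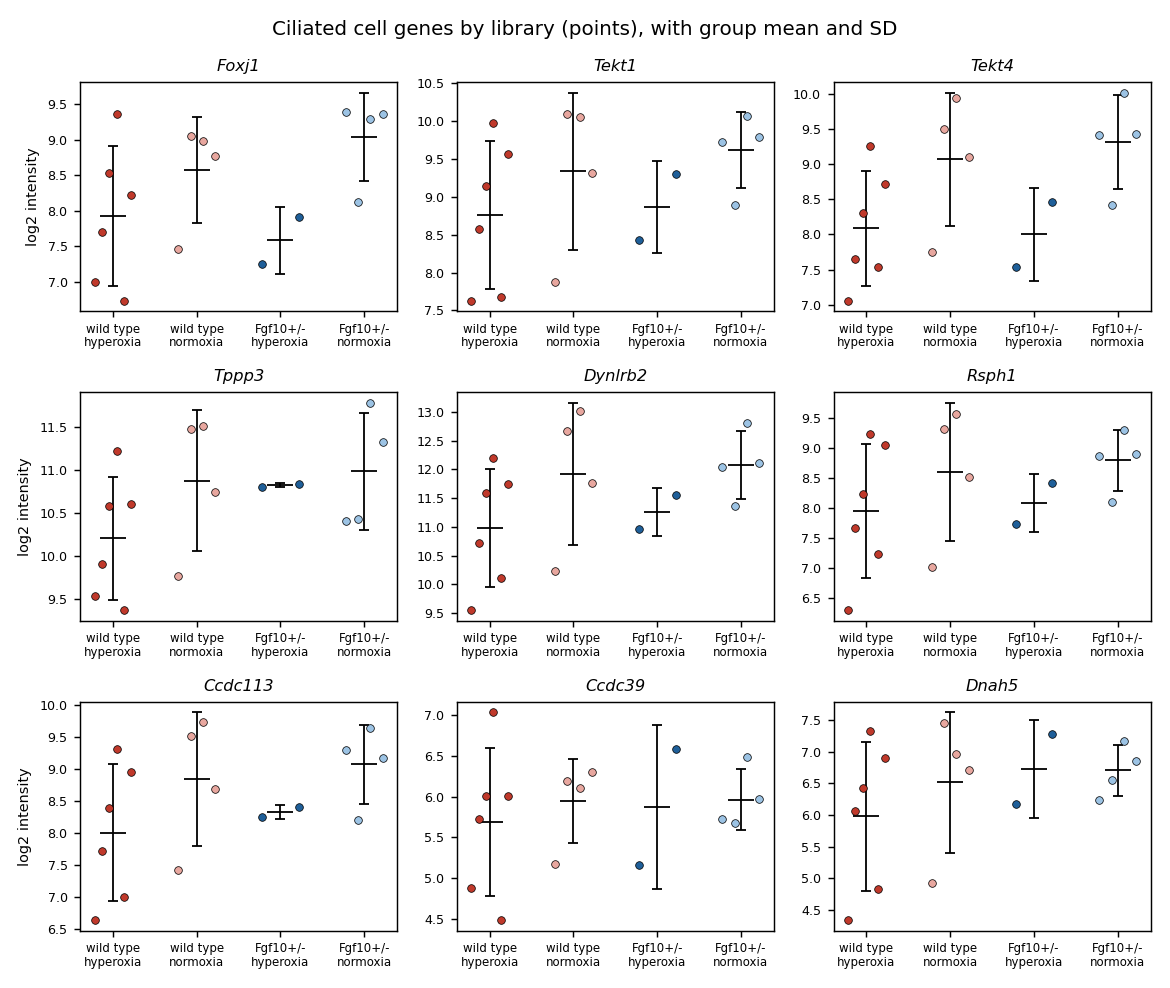
Log2 intensity of each of the 9 ciliated cell genes (vertical axis) in every library, by group (horizontal axis); points are libraries, the horizontal bar is the group mean and the whiskers are 1 SD (n = 6, 4, 2 and 4, left to right). For each of the 9 genes the wild-type groups overlap, and wild-type normoxia library 1, the leftmost point of its group, is the lowest normoxia library for all 9 genes.

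Foxj1 is the transcription factor that switches on the motile cilium genes. Its log2 intensity in wild-type hyperoxia ranged from 6.73 to 9.35, with a median of 7.96, against 7.46, 9.05, 8.97 and 8.77 in wild-type normoxia. In Fgf10+/- pups it was 7.25 and 7.91 in hyperoxia, against 9.39, 8.11, 9.29 and 9.36 in normoxia. The wild-type groups overlapped, while both Fgf10+/- hyperoxia libraries lay below all 4 Fgf10+/- normoxia libraries; 13.6% of all genes showed that pattern in that comparison. Over both genotypes Foxj1 averaged 7.83 ± 0.86 in hyperoxia and 8.80 ± 0.68 in normoxia (SD, n = 8 each).

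Tekt1, Tekt4 and Tppp3 belong to the microtubules of the axoneme: tektins are filament proteins inside the doublets, and Tppp3 is a tubulin-binding protein of the TPPP family. Tekt4 ranged from 7.06 to 9.25 in wild-type hyperoxia, with a median of 7.98, against 7.75, 9.50, 9.93 and 9.09 in wild-type normoxia. In Fgf10+/- pups Tekt4 was 7.53 and 8.46 in hyperoxia, against 9.41, 8.41, 10.01 and 9.42 in normoxia. The groups overlapped in either genotype, in Fgf10+/- only between the upper hyperoxia and the lowest normoxia library. Tekt1 ranged from 7.63 to 9.97 in wild-type hyperoxia, with a median of 8.86, against 7.87 to 10.10 in wild-type normoxia; its Fgf10+/- values were 8.43 and 9.30 in hyperoxia, against 8.90 to 10.07 in normoxia. Tppp3 ranged from 9.36 to 11.22 in wild-type hyperoxia, with a median of 10.24, against 9.76 to 11.51 in wild-type normoxia; its Fgf10+/- values were 10.80 and 10.83 in hyperoxia, against 10.41, 10.42, 11.78 and 11.31 in normoxia. For Tppp3 the Fgf10+/- hyperoxia libraries lay in the middle of the Fgf10+/- normoxia libraries.

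Dnah5 is a heavy chain of the outer dynein arm, and Dynlrb2 is a roadblock light chain of dyneins. Dynlrb2 ranged from 9.55 to 12.19 in wild-type hyperoxia, with a median of 11.16, against 10.23, 12.67, 13.01 and 11.76 in wild-type normoxia. In Fgf10+/- pups Dynlrb2 was 10.96 and 11.55 in hyperoxia, against 12.05, 11.36, 12.80 and 12.11 in normoxia. Its groups overlapped in either genotype. Dnah5 ranged from 4.34 to 7.32 in wild-type hyperoxia, with a median of 6.24, against 4.92, 7.46, 6.97 and 6.71 in wild-type normoxia; in Fgf10+/- pups it was 6.18 and 7.27 in hyperoxia, against 6.24, 6.55, 7.17 and 6.85 in normoxia. The Fgf10+/- hyperoxia libraries held both the lowest and the highest Dnah5 value of that genotype.

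Rsph1 is a protein of the radial spoke head, Ccdc39 is part of the ruler that places inner arms along the doublet, and Ccdc113 is a coiled-coil protein of cilia. Rsph1 ranged from 6.30 to 9.22 in wild-type hyperoxia, with a median of 7.95, against 7.01 to 9.56 in wild-type normoxia; in Fgf10+/- pups it was 7.74 and 8.42 in hyperoxia, against 8.10 to 9.30 in normoxia. Ccdc113 ranged from 6.63 to 9.32 in wild-type hyperoxia, with a median of 8.05, against 7.42 to 9.74 in wild-type normoxia; in Fgf10+/- pups it was 8.25 and 8.40 in hyperoxia, against 8.20 to 9.65 in normoxia. Ccdc39 ranged from 4.48 to 7.03 in wild-type hyperoxia, with a median of 5.87, against 5.18 to 6.30 in wild-type normoxia; in Fgf10+/- pups it was 5.17 and 6.58 in hyperoxia, against 5.67 to 6.48 in normoxia. All 3 genes overlapped between oxygen groups in either genotype, and for Ccdc39 the hyperoxia libraries spread beyond the normoxia libraries at both ends.

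The first comparison asked what hyperoxia did in both genotypes together. All 9 members had a lower mean in hyperoxia, but none passed the test across all genes (limma with genotype as a term, adjusted p under 0.05 by the Benjamini-Hochberg method), where 11.9% of all genes were called, 5.2% higher and 6.65% lower. Tekt4 came nearest, with a log2 change of -1.10 (SE 0.36, limma adjusted p = 0.0562), followed by Foxj1 at -0.94 (SE 0.37, limma adjusted p = 0.115) and Dynlrb2 at -0.90 (SE 0.43, limma adjusted p = 0.191). The other 6 changes ran from -0.81 for Ccdc113 to -0.19 for Ccdc39. The median over the members was -0.67, against -0.07 over all genes, of which 57.2% had a negative change. At an unadjusted p under 0.05, 2 members passed (Tekt4 and Foxj1), against 26.2% of all genes. Wild-type normoxia library 1 decided part of this count: without it, Tekt4 at -1.38, Foxj1 at -1.19 and Dynlrb2 at -1.23 were called (limma adjusted p = 0.0129, 0.0393 and 0.0499). Without wild-type hyperoxia library 4, Tekt4 and Foxj1 were called, at -1.25 and -1.13, and Tekt4 alone was called without wild-type hyperoxia library 6 or Fgf10+/- normoxia library 2. RNA of whole samples does not tell fewer ciliated cells apart from less RNA of these genes per cell. The dimmer features gave like values: the other Tekt1 feature changed by -0.81 (limma adjusted p = 0.163) and the other Rsph1 feature by -0.81 (limma adjusted p = 0.218), neither called.

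Within wild type, all 9 changes were negative and none was called, where 3.13% of all genes were. The changes ran from -0.98 for Tekt4 (SE 0.46, limma adjusted p = 0.271) to -0.25 for Ccdc39 (SE 0.42, limma adjusted p = 0.804), with a median of -0.65, against -0.08 over all genes, of which 58.3% had a negative change. Without wild-type normoxia library 1 the median was -1.07, and without wild-type normoxia libraries 1 and 4 it was -1.32. When 1 library was left out it ran from -1.07 to -0.46. Tekt4 was the member that passed at an unadjusted p under 0.05, as did 18.2% of all genes. Foxj1 changed by -0.65 (95% confidence interval -1.63 to 0.34). Within Fgf10+/- pups, 8 of 9 changes were negative and none was called, where 2.45% of all genes were. Foxj1 had the lowest change there, at -1.46 (SE 0.62, limma adjusted p = 0.25), and Tekt4 changed by -1.31 (SE 0.62, limma adjusted p = 0.298), while Dnah5 changed by 0.02 and Ccdc39 by -0.09. The median was -0.75, against -0.04 over all genes, of which 53.4% had a negative change, and it rests on 2 hyperoxia libraries. It was -0.37 without Fgf10+/- hyperoxia library 1, -1.05 without library 2, -1.22 without the 4 libraries high in thymocyte genes and -0.24 with the replicate number as a block. Foxj1 and Tekt4 passed at an unadjusted p under 0.05, as did 16.7% of all genes. Both within-genotype comparisons use libraries that also enter the comparison over both genotypes.

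**Figure D2:**
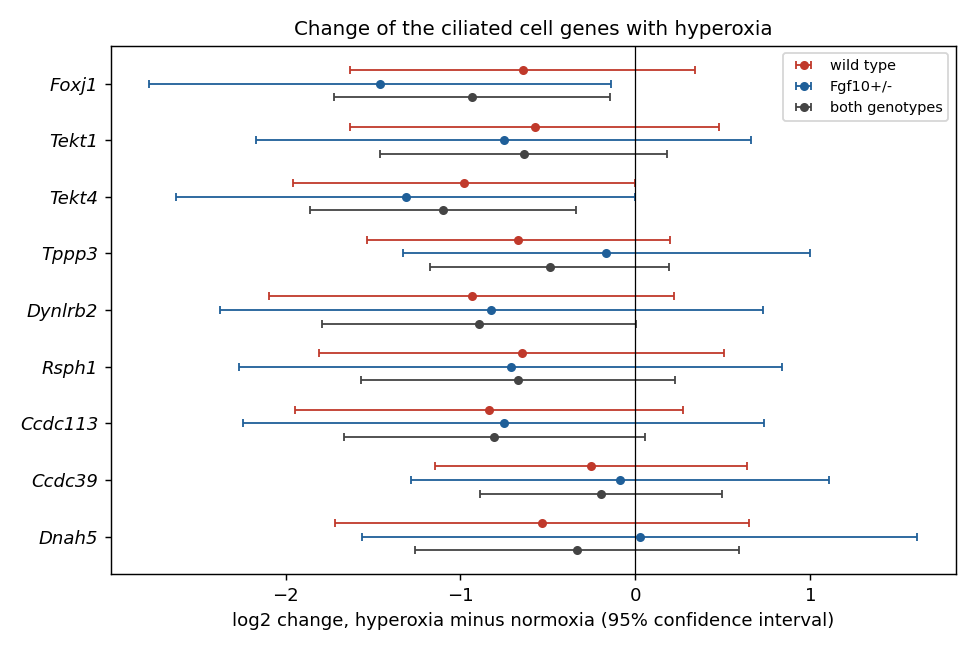
Log2 change of each ciliated cell gene, hyperoxia minus normoxia (horizontal axis), in wild type, in Fgf10+/- and over both genotypes, with 95% confidence intervals from limma. Over both genotypes the intervals of Foxj1 and Tekt4 lie below 0, as those of Tekt4 do in either genotype and that of Foxj1 in Fgf10+/-; no change passed the adjusted threshold.

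Genotype was compared next. Between Fgf10+/- and wild type in normoxia the changes ran from 0.02 for Ccdc39 to 0.48 for Foxj1 with a median of 0.19, and none was called, where 0.00965% of all genes were. The direction rested on 1 library: without wild-type normoxia library 1 the median was -0.24. It was -0.51 without wild-type normoxia libraries 1 and 4, 0.76 without the 4 libraries high in thymocyte genes, and 0.02 to 0.52 when any other single library was left out. No member passed at an unadjusted p under 0.05 either, against 6.03% of all genes. In hyperoxia the changes ran from -0.34 for Foxj1 to 0.75 for Dnah5, with a median of 0.19 and 7 of 9 positive, and none was called, where 0% of all genes were and 906 genes (4.37%), no member among them, passed at an unadjusted p under 0.05 in limma. This median also turned its sign, to -0.21 without Fgf10+/- hyperoxia library 2, and to -0.02 and -0.01 without wild-type hyperoxia libraries 1 and 5. It was 0.54 without Fgf10+/- hyperoxia library 1 and 0.76 with the replicate number as a block. The difference between the genotypes' hyperoxia effects was -0.81 for Foxj1 (95% confidence interval -2.46 to 0.83) and 0.56 for Dnah5 (95% confidence interval -1.42 to 2.54), with a median of 0.08 that ran from -0.40 to 0.47 when 1 library was left out. None was called, where 0.00965% of all genes were, and none passed unadjusted, against 4.11% of all genes. The intervals leave room for differences of over 1 log2 unit in either member.

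Upstream of the axoneme genes, the multiciliated cell regulators split. Ccno, the cyclin needed to multiply centrioles, ranged from 7.13 to 8.55 in wild-type hyperoxia, with a median of 8.09, against 9.19, 9.31, 9.47 and 9.31 in wild-type normoxia. In Fgf10+/- pups Ccno was 7.29 and 7.28 in hyperoxia, against 9.43, 8.85, 9.64 and 9.16 in normoxia. No hyperoxia library reached any normoxia library, a pattern that 1.71% of all genes showed in this direction over both genotypes. The log2 change of Ccno was -1.36 in wild type (SE 0.26, limma adjusted p = 0.00663), -1.98 in Fgf10+/- (SE 0.34, limma adjusted p = 0.00758) and -1.58 over both genotypes (SE 0.21, limma adjusted p = 0.000118). Its interaction with genotype was -0.62 (SE 0.43, limma adjusted p = 1), so a larger fall in Fgf10+/- was not shown.

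Mcidas, the coregulator that starts the multiciliated programme, went the other way. It ranged from 11.27 to 13.70 in wild-type hyperoxia, with a median of 12.76, against 9.19, 8.13, 9.40 and 8.08 in wild-type normoxia, and was 12.78 and 12.20 in Fgf10+/- hyperoxia, against 9.50, 8.79, 8.86 and 9.17 in Fgf10+/- normoxia. All 8 hyperoxia libraries lay above all 8 normoxia libraries, which 1.84% of all genes showed in this direction. Mcidas rose by 3.92 in wild type (SE 0.41, limma adjusted p = 7.9e-05), by 3.41 in Fgf10+/- (SE 0.55, limma adjusted p = 0.00519) and by 3.74 over both genotypes (SE 0.33, limma adjusted p = 2e-06). Within groups Mcidas did not follow the ciliated cell genes: its r with their mean was -0.59 (16 libraries, group means taken out). By the same measure 37 genes of all reached an r of 0.9 with Mcidas, led by Itgam, a myeloid integrin, at 0.99. None of the 104 other measured cilium genes did, which was not particular to Mcidas. The count was 0 of 104 also for Ccno, whose r with the members was 0.81, and for Myb, Foxn4, Rfx2, Rfx3, Gmnc and Trp73. For the regulators Deup1 and Ccdc78 it was 10 and 24. Ccno and Mcidas are neighbours on chromosome 13, and for each the array holds 1 named feature. The Fgf10+/- calls rest on 2 hyperoxia libraries: without Fgf10+/- hyperoxia library 1 the adjusted p was 0.071 for Mcidas and 0.0705 for Ccno, and without library 2 it was 0.0632 for Ccno (limma), with changes of 3.12, -1.99 and -1.98.

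Over both genotypes, 14 of the 19 measured regulators had a negative change, against 57.2% of all genes, and 1 was called higher (Mcidas) and 5 lower (Ccno, Plk4, Myb, Foxn4 and Stil), against 5.2% and 6.65% of all genes, with a median change of -0.41. Plk4 and Stil, which act in the making of centrioles, changed by -0.84 (SE 0.20, limma adjusted p = 0.00974) and -0.64 (SE 0.20, limma adjusted p = 0.0435), and their features were dim, near the median of all values, 4.34. Myb, a transcription factor of early multiciliated cells and also of blood progenitors, fell by 1.45 (SE 0.37, limma adjusted p = 0.0178). It ranged from 7.02 to 8.74 in wild-type hyperoxia, with a median of 7.63, against 8.05, 8.89, 8.44 and 10.49 in wild-type normoxia, and was 7.37 and 7.85 in Fgf10+/- hyperoxia, against 9.87, 10.45, 8.27 and 9.51 in Fgf10+/- normoxia. Its 4 highest values were those of the libraries high in thymocyte genes, and without these its change was -0.68 (limma adjusted p = 0.205). It was not called without Fgf10+/- hyperoxia library 1 either (-1.31, limma adjusted p = 0.0568). Foxn4, a forkhead factor of multiciliated cells in frogs, fell by 1.16 (SE 0.32, limma adjusted p = 0.0248), and was not called without those 4 libraries (-1.09, limma adjusted p = 0.171), without Fgf10+/- hyperoxia library 2 (-1.07, 0.0729), or without wild-type normoxia library 3 (-1.04, 0.0567) or 4 (-1.10, 0.0571). Rfx2 changed by -0.84 (limma adjusted p = 0.07), Trp73 by -0.41 (limma adjusted p = 0.145), Rfx3 by -0.36 and Gmnc by 0.26, none called. For Rfx3 and Trp73 all 3 features had a negative change, but the calls differed: 1 dimmer feature of each was called lower in a fit over all features, at -0.93 (limma adjusted p = 0.036) and -0.98 (limma adjusted p = 0.0314).

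**Figure D3:**
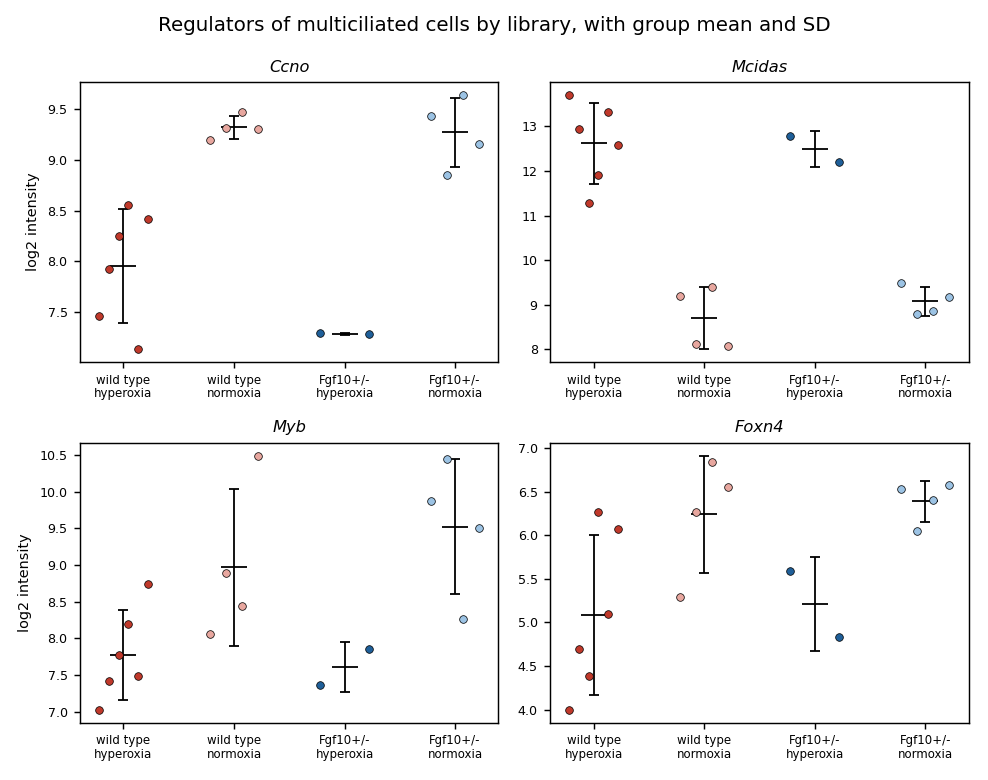
Log2 intensity (vertical axis) of Ccno, Mcidas, Myb and Foxn4 in every library, by group (horizontal axis), with group mean and SD. All hyperoxia libraries lie below all normoxia libraries for Ccno and above them for Mcidas, while for Myb and Foxn4 the wild-type groups overlap and the Fgf10+/- groups do not.

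Of 105 measured cilium genes outside the 9 members, regulators included, 2 were called higher and 12 lower in hyperoxia over both genotypes, against 5.2% and 6.65% of all genes. Their median change was -0.26, with 75 of 105 negative; in wild type Mcidas and Ccno were the calls, and in Fgf10+/- Ift22 joined them. With members counted in their lists, 1 of 12 outer arm genes, Ccdc103, which helps dynein arms attach, was called lower, at -0.95 (limma adjusted p = 0.0411). Among 15 inner arm and ruler genes it was Ccdc40, the partner of Ccdc39, at -1.23 (limma adjusted p = 0.043). Of 17 radial spoke and central pair genes, Spag16 changed by -0.93 (limma adjusted p = 0.00293) and Ropn1l by -1.34 (limma adjusted p = 0.0303). None of 10 genes for dynein arm assembly and none of 16 tektins and microtubule inner proteins was called. The brightest of these were Dnaaf3 and Dnaaf5, dynein arm assembly factors, at -0.65 (limma adjusted p = 0.211) and -0.63 (limma adjusted p = 0.0699), and, beside the member Tppp3, Cfap126 at -1.05 (limma adjusted p = 0.111). These calls were fragile: leaving out 1 of the 16 libraries ended the call of Ccdc103 in 11 cases, of Ccdc40 in 12, of Ropn1l in 7 and of Stil in 11, while Spag16 and Plk4 kept theirs in all 16. Spag16 was not called when all its features were averaged (-0.36, limma adjusted p = 0.24).

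Intraflagellar transport carries cargo along the axoneme, and 1 of its 23 measured genes was called higher and 3 lower, where 11.9% of all genes were called. Ift22, Ift46 and Ift27 fell over both genotypes, with changes of -1.03, -0.57 and -0.58 (limma adjusted p = 0.00551, 0.0284 and 0.0384), and Kif3a, a motor subunit, rose by 0.74 (limma adjusted p = 0.0245). In Fgf10+/- pups Ift22 fell by 1.69 (SE 0.32, limma adjusted p = 0.0122), a call that ended without Fgf10+/- hyperoxia library 2 (-1.35, limma adjusted p = 0.147). Kif3a was not called with its features averaged (0.42, limma adjusted p = 0.214). Leaving out 1 library ended the call over both genotypes for Kif3a in 3 of 16 cases (Fgf10+/- hyperoxia library 2 and wild-type normoxia libraries 1 and 4), for Ift46 in 5 and for Ift27 in 12, and for Ift22 in 0. Without the 4 libraries high in thymocyte genes none of the 4 was called, Ift22 being at -0.97 (limma adjusted p = 0.0663), Kif3a at 0.48 (0.266), Ift46 at -0.69 (0.0669) and Ift27 at -0.53 (0.21). Relatives of the members outside the cilium lists were not called: Dynlrb1, the general form of the roadblock light chain, lay between 10.38 and 10.76 in all libraries and changed by 0.06, Tppp by -0.47 (limma adjusted p = 0.104) and Tppp2 by -0.57 (limma adjusted p = 0.228).

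Since the members moved together between libraries, the cilium genes were also compared at an equal level of the 9 genes, with the mean of the 9 members in each library as a covariate, a fit chosen after seeing the data. In that fit 10.5% of all genes were called over both genotypes. Of the 105 other cilium genes, 13 were called higher and 6 lower in hyperoxia, and 8 were called in both fits. Mcidas stayed the highest, at 3.40, and 5 of 14 other inner arm and ruler genes were called higher, with Wdr78 at 1.00 (SE 0.14, limma adjusted p = 0.000282), Wdr63 at 0.93 (SE 0.14, limma adjusted p = 0.000505) and Dnah6 at 0.83 (SE 0.12, limma adjusted p = 0.000525); the first 2 are intermediate chains and the third is a heavy chain. Dnah2 and Dnah10 were the others. Cfap45, a microtubule inner protein, was at 0.96 (limma adjusted p = 0.000216) and Ift88, a core transport protein, at 0.81 (limma adjusted p = 0.000812). Without the covariate the same genes changed by 0.33, 0.27, 0.20, 0.16 and 0.39 with none called. The covariate itself was lower in hyperoxia, with a mean of 8.23 against 8.96 in normoxia. A gene that follows the members but does not change with oxygen can therefore be called higher with the covariate. Such a call is relative to the 9 genes and shows no rise with hyperoxia. Wdr78 lay between 7.46 and 10.05 in wild-type hyperoxia with a median of 8.99, against 7.24, 9.26, 9.07 and 8.78 in wild-type normoxia, and was 8.90 and 9.34 in Fgf10+/- hyperoxia, against 8.21, 8.19, 9.19 and 9.01 in Fgf10+/- normoxia. Its groups overlap, so the call rests on its level relative to the 9 genes. Ccno stayed lower, at -1.32 (SE 0.17, limma adjusted p = 0.000198), with Plk4, Ccdc40, Spag16, Ropn1l and Ift22.

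Leaving out each library in turn, or wild-type normoxia libraries 1 and 4 together, left Wdr78, Wdr63, Dnah6, Cfap45, Ift88, Ccno and Mcidas called over both genotypes in 17 of 17 cases. Of all the cilium genes 7 to 15 were then called higher and 3 to 7 lower. The 7 named genes were picked from this fit on the same libraries, so these cases show dependence on single libraries and are no independent support. Leaving out the 4 libraries high in thymocyte genes was not among the cases. Within wild type, 9 were called higher and 1 lower with the covariate (3.21% of all genes), but 2 and 0 without wild-type normoxia library 1, and 0 and 0 without libraries 1 and 4. Within Fgf10+/- 6 were called higher and 2 lower (2.93% of all genes), but 0 and 0 without Fgf10+/- hyperoxia library 2. Each member was likewise set against the mean of the other 8. Of the 9 members Tekt4 alone was then called over both genotypes, at -0.52 (SE 0.15, limma adjusted p = 0.0362), and the others ran from -0.36 for Foxj1 (limma adjusted p = 0.31) to 0.48 for Dnah5 (limma adjusted p = 0.166). The share of all genes called was not counted in these fits. With the mean of all 9 members as the covariate it was 10.5% over both genotypes.

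**Figure D4:**
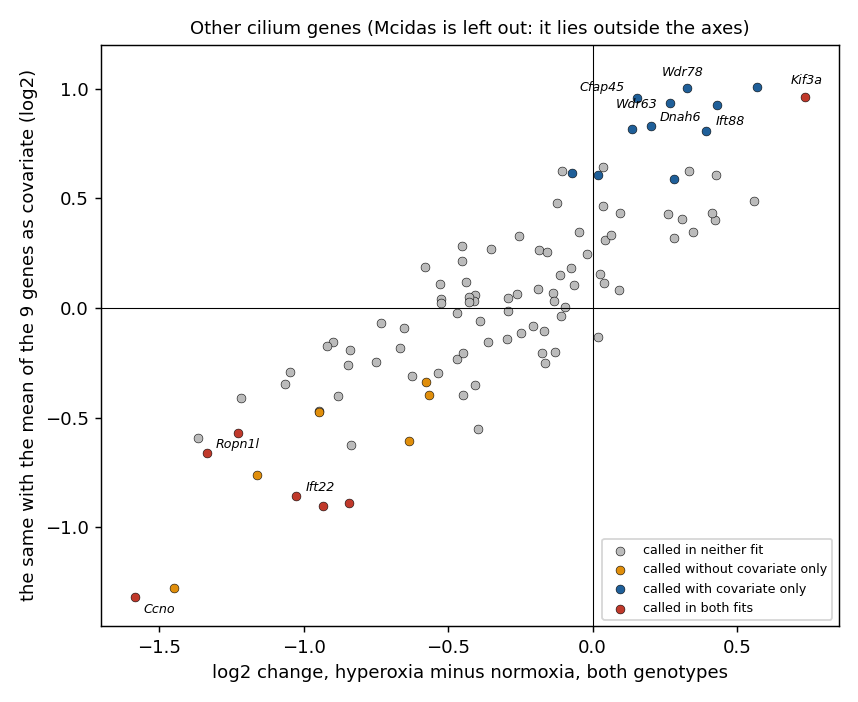
Log2 change of 104 cilium genes outside the 9 members, hyperoxia minus normoxia over both genotypes, without (horizontal axis) and with (vertical axis) the mean of the 9 genes as a covariate; colours mark the genes called in either fit. Wdr78, Wdr63, Dnah6, Cfap45 and Ift88 are called with the covariate only, and Ccno is lowest in both; Mcidas lies outside the axes and is not drawn.

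Taken as a mean, club and secretory cell markers moved with the ciliated cell genes. The mean of 13 club and secretory cell genes followed the mean of the 9 members over the 16 libraries with r = 0.93 (Spearman's rho 0.91), with 0.87 after the 2 libraries farthest from the median were left out, and with 0.95 once group means were taken out. It ranged from 8.83 to 12.31 in hyperoxia, against 10.36 to 12.68 in normoxia. All 13 genes had negative changes over both genotypes, against 57.2% of all genes, and 3 were called lower, against 6.65% of all genes: Lypd2 at -2.31 (SE 0.49, limma adjusted p = 0.00546), Scgb3a1, a secretoglobin, at -4.02 (SE 1.13, limma adjusted p = 0.0275), and Muc5b, an airway mucin, at -3.61 (SE 1.07, limma adjusted p = 0.0346). The secretoglobins Scgb1a1 and Scgb3a2 changed by -0.22 and -1.09 and the club cell cytochrome Cyp2f2 by -0.28, none called (limma adjusted p = 0.355, 0.136 and 0.657). The Scgb1a1 feature lay near the top value of the table, 15.98, so a difference there may not be measurable. Leaving out 1 library ended the call of Muc5b in 10 of 16 cases, of Scgb3a1 in 3 (Fgf10+/- hyperoxia library 1 and wild-type normoxia libraries 3 and 4) and of Lypd2 in 0. The calls of Scgb3a1 and Muc5b also ended with a trend and robust variance model (limma adjusted p = 0.0548 and 0.0663) and without the 4 libraries high in thymocyte genes (0.197 and 0.23). The basal cell list followed the members with r = 0.75 and the neuroendocrine list with 0.77, the AT2 list with 0.36, the fibroblast and smooth muscle list with -0.75, the erythroid list with -0.63, the endothelial list with -0.52, the macrophage list with -0.46 and the thymocyte list with 0.14. The basal genes differed: r with the mean of the members, each centred and scaled, was 0.95 for Krt15 and 0.59 for Krt5. For Krt14 it was 0.24, for Dapl1 0.06, for Ngfr -0.03 and for Trp63 -0.42. In the neuroendocrine list this r ran from 0.32 for Chgb to 0.68 for Uchl1. The fibroblast and smooth muscle mean ranged from 8.68 to 9.68 in hyperoxia, against 7.86 to 10.48 in normoxia. Over both genotypes 9 of 11 fibroblast and smooth muscle genes had a positive change, with Tagln (1.69) and Myh11 (1.25) called higher, as did 7 of 8 endothelial genes, with Kdr (1.22) and Cldn5 (1.22) called higher. Of 12 AT2 genes 10 had a negative change, with Sftpa1 (-0.87) and Nkx2-1 (-0.63) called lower, and of 10 thymocyte genes all did, with Cd8b1 (-1.12) and Dntt (-1.93) called lower. Over all genes 57.2% had a negative change, 5.2% were called higher and 6.65% lower. Among 8 macrophage genes Marco (1.42) was called higher, and no basal, neuroendocrine or erythroid gene was called. The part of these cells in the members' differences was not tested. Each r describes 16 libraries on one normalized scale, where signals of different cells share the total.

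**Figure D5:**
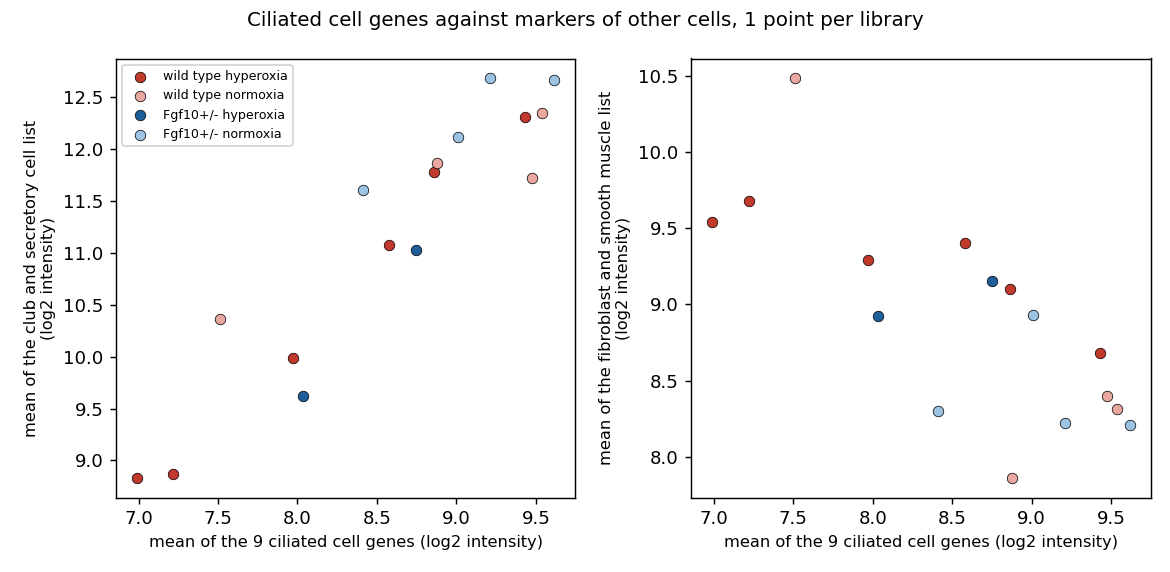
Mean log2 intensity of the club and secretory cell list (left) and of the fibroblast and smooth muscle list (right) against the mean of the 9 ciliated cell genes, with 1 point per library coloured by group. Libraries high in ciliated cell genes are high in club cell genes, and wild-type normoxia library 1 is the highest point of the right panel, at 10.48.

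Among all other genes, 216 of 20716 (1.04%) followed the mean of the 9 members, each centred and scaled, with r over 0.9 across the 16 libraries. They included 24 of the 105 other cilium genes (22.9%) and also 4 of 13 club and secretory cell genes (30.8%). Among the cilium genes were 6 of 16 other radial spoke and central pair genes and 5 of 14 other inner arm and ruler genes. Of the intraflagellar transport genes, 1 of 23 was included. Outside the fixed lists the 6 most alike were 1110017D15Rik (r = 0.992), Clic6 (0.988), Ttc29 (0.985), 1700016K19Rik (0.984), Bphl (0.984) and Ccdc181 (0.984). Of the 6, Clic6 is a chloride intracellular channel family gene, Ttc29 and Ccdc181 encode proteins of motile cilia and flagella, and Bphl encodes a hydrolase. Ttc29 ranged from 4.77 to 7.97 in wild-type hyperoxia, against 5.61, 8.04, 8.06 and 7.20 in wild-type normoxia, and was 6.70 and 7.23 in Fgf10+/- hyperoxia, against 7.35, 6.86, 8.04 and 7.82 in Fgf10+/- normoxia. Its lowest libraries were wild-type hyperoxia libraries 1 and 5 and wild-type normoxia library 1, as for the mean of the members.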

How the data were processed

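The 16 libraries were Cy3-labelled RNA on Agilent arrays of 1 colour, per the labels' protocols. The authors' deposited values were log2 intensities, 1 per feature and library, a scale inferred from their range of -0.40 to 15.98; the sources used here name no software, background correction, normalization method or log base. At equal rank, values on any 2 arrays lay within 0.204, so the deposited table was already normalized. Detection flags and slides were not analysed here, so dim features were not told apart from background. For arrays, the number of libraries limits the precision.

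Of 62976 features, 65 with a missing value were left out; 31439 features with 1 annotated symbol, updated through RefSeq tables of GRCm38.p6, gave 20725 genes, each represented by its brightest feature. Of 207 list genes 196 were measured. Libraries were grouped by title. Group means were fitted with limma 3.58.1 in R 4.3.3 over all 16 libraries, so that groups shared the estimate of spread; the comparison over both genotypes had genotype as an additive term. Adjusted p-values are Benjamini-Hochberg values over all genes, called under 0.05, with 95% confidence intervals. The fits were tested on simulated data. Correlations were computed in Python 3.11.15. The promoter search took GTTGCC and TGTTTA on both strands of RefSeq windows. No promoter entry was found for Foxj1, Rsph1 and Tppp3.

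The members, the gene lists and the libraries left out in alternatives were chosen with earlier results of these data known. Named genes were the members, their paralogs, 8 regulators, called genes of the cilium lists (up to 5 a list; the 2 brightest in lists without a call) and of the club cell list with Scgb1a1, Scgb3a2 and Cyp2f2 (Plk4, Stil, the called markers of other cells and the covariate results were named after their values were seen), and the 6 genes most like the members' mean. Alternatives changed the feature rule, normalization, filter on dim genes, variance model, array weights, replicate block, samples in the fit and genotype term, or left out libraries; fits with the members' mean as a covariate were added after seeing the data.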

Additional observations from a re-analysis of the deposited data

Results flagged for a closer look

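Foxj1 in Fgf10+/- normoxia library 2 stood apart from its group, at 8.11 on the log2 scale, against 9.29 to 9.39 in the other 3 libraries; its gap to the nearest was 0.922 of the group's range. It was the only such value among 42 groups of values checked for the members and named regulators, where chance gives about 1 in 20.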

How the results depend on the processing

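No member was called in any comparison within 1 genotype or between genotypes under any alternative. Over both genotypes the count of members called was 0 in the main setting and 1, Tekt4, without dim genes (limma adjusted p = 0.04), with array weights (0.0326), without wild-type normoxia libraries 1 and 4 (0.0209) and without the genotype term (0.0336); the causes were not tested. Leaving out 1 library gave 0 to 3 members called. The median change of the members over both genotypes ran from -1.12 to -0.50 over all alternatives. Small changes in Fgf10+/- turned their sign with no call: Tppp3 to 0.30 with the replicate block, and it ran from -0.36 to 0.10 when 1 library was left out; Ccdc39 to 0.0068 with median centring and 0.29 with the block, and from -0.80 to 0.62; Dnah5 to -0.0573 with array weights and -0.45 without the 4 libraries high in thymocyte genes, and from -0.52 to 0.57. Ccdc39 over both genotypes was 0.0876 with the block. Same-numbered libraries of different groups had correlations of -0.16 to 0.24 (18 pairs, median 0.03, 4 over 0.1). Differently numbered libraries were not set beside them, so these values do not decide whether replicate numbers pair the libraries. With the replicate number as a block 0 members were called in each comparison, the median changes were -0.56 in wild type, -0.24 in Fgf10+/- and -0.53 over both genotypes, and the count of all genes called over both genotypes was 1519, against 2456. Ccno in wild type was not called without wild-type normoxia libraries 1 and 4 (-1.43, limma adjusted p = 0.0564). Without the 4 libraries high in thymocyte genes Ccno (-2.35, 0.144) and Mcidas (3.63, 0.16) were not called in Fgf10+/-, and 891 genes were called over both genotypes.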
